A study of Mus musculus with 36 samples.

Results

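Oxidative phosphorylation genes were read in 3 brain regions of mice given modafinil or vehicle. The set was taken by name, not by its values: genes with 1 symbol on the array whose symbol starts with Nduf, Cox4, Cox5, Cox6, Cox7, Cox8, Uqcr or Atp5, and the genes Sdha, Sdhb, Sdhc and Sdhd. That gave 90 of the 18193 genes on the array, and where several probe sets named a gene, the one whose mean over the 36 arrays was highest was kept. The 90 comprised 36 genes named for complex I, 8 complex I assembly factors (the Ndufaf genes), 4 genes of complex II, 8 of complex III, 17 of complex IV and 17 of complex V. Names and roles part in places: Ndufa4 carries a complex I name but is known as a subunit of complex IV, and Ndufa4l2 is its paralogue.

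Messenger RNA was measured on Affymetrix mouse arrays, single-colour arrays whose probe sets read mostly the 3′ ends of transcripts. All mice were male C57B1/6J of 20 to 26 g trained in place conditioning, where injections are paired with one side of a box, and all received saline on alternate days. Their age is not given in the labels. Treated mice received modafinil, a wakefulness-promoting inhibitor of the dopamine transporter, on the drug days of training (days 3 to 10), at a dose of 65 mg/kg. Vehicle mice received saline on those days, and brains were taken on day 11, 24 h after the last dose. There were 5 modafinil and 5 vehicle arrays of the ventral tegmental area (VTA), 5 and 5 of the nucleus accumbens (NAC), and 8 and 8 of the prefrontal cortex (PFC), all from 1 mm tissue punches. For VTA and NAC, RNA from 2 pieces of tissue was pooled where its integrity number was above 7, so an array there may hold 1 or 2 pieces. Whether every array comes from its own mouse is not stated in the labels. The p-values set differences against the spread between these arrays, which may not be the spread between mice. The number of arrays limits the precision.

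The respiratory chain sits in the inner mitochondrial membrane. Complex I (NADH dehydrogenase) and complex II (succinate dehydrogenase, also an enzyme of the citric acid cycle) pass electrons to ubiquinone, complex III passes them to cytochrome c, and complex IV (cytochrome c oxidase) passes them to oxygen. Complexes I, III and IV pump protons, and complex V (ATP synthase) makes ATP from the gradient. Neurons draw most of their ATP from this chain. All genes read here are nuclear, and the subunits encoded by mitochondrial DNA were not analysed here.

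Values are on the log2 scale, so 1 unit is a 2-fold difference. The tissue labels were checked against marker genes. Striatal markers were higher in NAC than in VTA for 8 of 8 tested genes, and dopamine neuron markers were lower for 6 of 7. Cortical excitatory neuron markers averaged 9.31 to 9.75 over the vehicle PFC arrays and 5.79 to 6.15 over the vehicle VTA arrays. Their range in vehicle NAC was 6.98 to 9.06, so these markers were present in NAC punches and varied among them. One array, Vehicle NAC 1, stood apart in its bright probe sets, which lay 0.78 below the other NAC arrays at the median. Its 3′ minus 5′ difference for actin, a measure of RNA integrity and labelling, was 0.35, against 0.67 to 0.86 in the other vehicle NAC arrays. The same difference for Gapdh was −0.080 on Vehicle NAC 1, inside the −0.17 to −0.021 of the other vehicle NAC arrays. What set this array apart was not tested. The main counts and medians that include this array are therefore also given without it.

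The region comparison set NAC against VTA in vehicle mice. Complex I transcripts were lower in NAC: 25 of 35 tested genes fell and 1 rose, at an adjusted p under 0.05 in limma. Over the 85 tested members 40 were lower, against a background of 28.8% of all probe sets, and 5 were higher, against 30.3%. The median difference of the members was −0.18, and −0.12 without Vehicle NAC 1 or −0.10 after quantile normalization. That of all probe sets was 0.01, and 0.023 without that array. NAC and VTA differ in cell makeup, and fewer cells of a type cannot be told apart from less RNA per cell in such tissue.

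The lower complex I genes included membrane arm and catalytic core subunits. Ndufb5, an accessory subunit of the membrane arm (probe set 1417102_a_at), read 11.18, 11.35, 11.48, 11.51 and 11.53 in the NAC arrays, against 11.91, 12.02, 12.07, 11.88 and 12.08 in the VTA arrays. The lowest NAC value belonged to Vehicle NAC 1, and no NAC value reached the VTA values. Its difference was −0.58 (SE 0.064, adjusted p = 2.25e-07), and −0.52 without Vehicle NAC 1. Ndufb8, another membrane arm subunit, averaged 11.38 ± 0.15 in NAC and 11.94 ± 0.15 in VTA (SD, n = 5 each), a difference of −0.56 (adjusted p = 2.18e-06). The catalytic core subunit Ndufv1, which holds the NADH site, fell by 0.32 (adjusted p = 3.33e-05), and Ndufs1, the large iron-sulphur subunit, fell by 0.23 (adjusted p = 0.00755). Ndufv1 is read by an x_at probe set, a class with probes that may bind unrelated transcripts. Ndufs4, an accessory subunit known from a mouse model of Leigh syndrome, had a difference of 0.04 with an adjusted p of 0.612. Ndufa4 had −0.12 (adjusted p = 0.178).

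The one gene named for complex I and called higher in NAC was Ndufa4l2, the paralogue of Ndufa4. It read 6.40 to 6.69 in NAC and 5.95 to 6.33 in VTA, with a difference of 0.43 (SE 0.072, adjusted p = 3.59e-05). It is a dim probe set. Ndufa1, a small subunit of the membrane arm, had a difference of 0.19 and an adjusted p of 0.121 over all arrays. Without Vehicle NAC 1 its difference was 0.34 with an adjusted p of 1.37e-05. On that array Ndufa1 read 11.86, and the other vehicle NAC arrays read 12.47 to 12.63.

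Assembly factors build complex I and are not part of it, and 2 of the 8 fell in NAC, a share close to the 28.8% of all probe sets that were lower. Ndufaf2 averaged 8.76 ± 0.085 in NAC and 9.33 ± 0.25 in VTA (SD, n = 5 each), a difference of −0.56 (adjusted p = 4.35e-05). Ndufaf6 fell by 0.44 (adjusted p = 8.86e-05), and Ndufaf8 rose by 0.18 (adjusted p = 0.0114). The other 5 assembly factors were not called.

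In complex II, the flavoprotein Sdha fell and the other 3 subunits were not called, beside 28.8% of all probe sets lower. Sdha read 10.88, 11.18, 11.20, 11.21 and 11.20 in NAC, against 11.59, 11.71, 11.64, 11.53 and 11.60 in VTA. The regions did not overlap, and Vehicle NAC 1 lay below the other 4 NAC arrays, which were close together. Its difference was −0.48 (SE 0.061, adjusted p = 1.57e-06). The iron-sulphur subunit Sdhb had −0.067 (adjusted p = 0.368), and the membrane anchors Sdhc and Sdhd had −0.026 and −0.12 (adjusted p = 0.746 and 0.0648). Sdha is read by an s_at probe set, a class that can bind several related transcripts.

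In complex III, Uqcrh, Uqcrfs1 and Uqcrc2 were called lower and Uqcr11 higher, beside 28.8% of all probe sets lower and 30.3% higher. The hinge protein Uqcrh fell by 0.44 (adjusted p = 5.41e-05). The Rieske iron-sulphur protein Uqcrfs1 fell by 0.28 (adjusted p = 0.000144) and the core protein Uqcrc2 by 0.26 (adjusted p = 0.00557). The small subunit Uqcr11 rose by 0.27 (SE 0.057, adjusted p = 0.00053). The other core protein, Uqcrc1, had −0.18 (adjusted p = 0.0637). Uqcrb, Uqcr10 and Uqcrq had −0.24, −0.071 and −0.014, none of them called. Only Uqcr11 had a positive difference in this complex.

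In complex IV, 5 of 13 tested genes fell and 2 rose, beside 28.8% of all probe sets lower and 30.3% higher. Cox5a, a nuclear subunit in contact with the catalytic core, fell by 0.39 (adjusted p = 0.00629). Its NAC values were 11.68, 12.48, 12.39, 12.45 and 12.36, against 12.58 to 12.74 in VTA, and Vehicle NAC 1 was the lowest by far. Without that array its difference was −0.24 (adjusted p = 0.00447). The ubiquitous subunits Cox4i1 and Cox5b had −0.18 and −0.23 (adjusted p = 0.194 and 0.15) with it, and −0.012 and −0.038 without it. Cox6c had −0.0053 over all arrays and 0.15 without Vehicle NAC 1 (adjusted p = 0.0349). For complex IV the median difference was −0.18 over all arrays and −0.012 without Vehicle NAC 1. For complex V it was −0.12 and −0.022, and for complex I it was −0.26 and −0.23.

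Among the isoforms of complex IV, Cox6a2 rose in NAC. Cox6a2, the heart and skeletal muscle isoform of subunit 6A, also known from parvalbumin neurons of the brain, read 8.36, 8.47, 8.54, 8.42 and 8.45 in NAC, against 7.55, 7.34, 7.33, 8.25 and 7.39 in VTA. All NAC values were higher, and Vehicle VTA 4 was far above the other VTA arrays. Its difference was 0.88 (SE 0.14, adjusted p = 1.67e-05). Cox6a1, the isoform of most tissues, had −0.17 (adjusted p = 0.44), and 0.11 without Vehicle NAC 1 (adjusted p = 0.0765). Cox7a1, the muscle isoform of subunit 7A, was below the filter on dim probe sets in this fit and was not tested. It averaged 5.57 ± 0.28 in NAC and 6.94 ± 0.32 in VTA (SD, n = 5 each), with no overlap. Cox7a2 and Cox7a2l, its broadly expressed relatives, fell by 0.25 and 0.32 (adjusted p = 0.0294 and 0.000157). Cox6b2, the testis isoform of subunit 6B, fell by 0.38, and Cox6b1 fell by 0.29 (adjusted p = 0.00327 and 0.0255). On Vehicle NAC 1 Cox7a2 and Cox6b1 read 11.77 and 11.93, and the other vehicle NAC arrays averaged 12.42 and 12.67. Their vehicle VTA means were 12.54 and 12.82. Of the Cox4i2, Cox8b and Cox8c isoforms, Cox4i2 and Cox8b were not tested, and Cox8c had 0.054 (adjusted p = 0.666).

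Cox7c, a small subunit of complex IV, was called higher in NAC. It read 7.95, 7.92, 7.94, 8.06 and 8.02 in NAC, against 7.60, 7.74, 7.69, 7.78 and 7.71 in VTA, a difference of 0.27 (SE 0.082, adjusted p = 0.00716). The groups did not overlap, and Vehicle NAC 1 lay inside its group. Cox7c is read by an s_at probe set, the class described for Sdha. It was dim beside Cox4i1, which averaged 12.81 in vehicle NAC.

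In complex V, 4 of 17 tested genes fell and 0 rose, which is no larger a share than the 28.8% of all probe sets that were lower. Atp5o, the peripheral stalk subunit that confers oligomycin sensitivity, fell by 0.43 (adjusted p = 3.66e-06), and Atp5j, another stalk subunit, fell by 0.37 (adjusted p = 0.000109). Atp5c1, the central stalk subunit gamma, fell by 0.28 (adjusted p = 0.00254). A second Atp5c1 probe set rose by 0.21 (adjusted p = 0.0307), so the probe sets of this gene disagreed. Atp5a1 and Atp5b, the subunits alpha and beta, had −0.22 and −0.096 (adjusted p = 0.0417 and 0.508). On Vehicle NAC 1 Atp5a1 read 11.77, and the other vehicle NAC arrays averaged 12.38, against 12.48 in vehicle VTA. Among the genes of the membrane ring subunit c, Atp5g1, Atp5g2 and Atp5g3 had −0.077, 0.073 and −0.27, none of them called. Of 74 further probe sets of the members that were tested, 58 had the same sign as the chosen probe set, and the Atp5c1 probe set was the one called the opposite way.

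**Figure D1:**
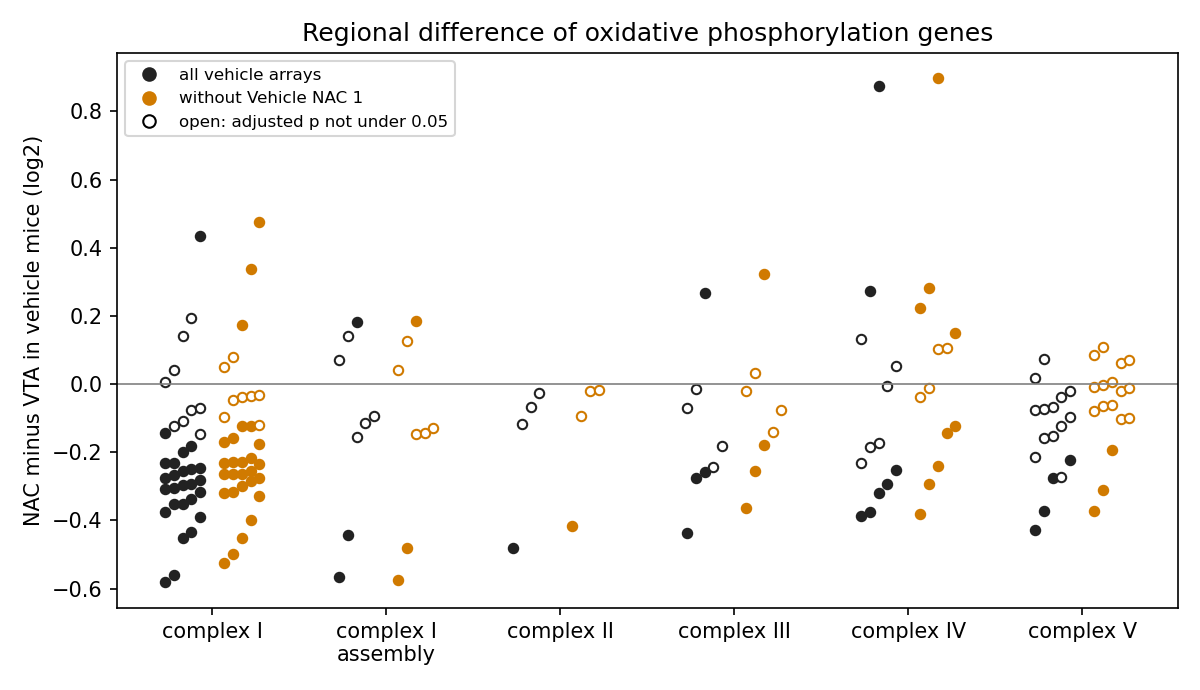
Difference between NAC and VTA in vehicle mice for each tested member, in log2 units, by complex, with all vehicle arrays (black) and without Vehicle NAC 1 (orange). Filled points passed the threshold. Complex I lies mostly below 0 in both, with medians of −0.26 and −0.23. The medians of complexes IV and V move toward 0 without Vehicle NAC 1, to −0.012 and −0.022, while some of their points move away from 0.

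Leaving out Vehicle NAC 1 left 38 members lower and 9 higher, against backgrounds of 27.0% and 30.4%. The 38 were all among the 40 called with that array, and all 5 higher genes stayed higher. The 4 added genes were Ndufa1, Cox8a, Ndufs3 and Cox6c. Complex I then had 24 of 35 genes lower and 3 higher, complex III 3 of 8 lower and 1 higher, complex IV 5 of 13 lower and 4 higher, and complex V 3 of 17 lower and 0 higher. The same contrast was also fitted in the modafinil arrays, which share no array with it, an analysis added after the data were seen. There 18 of 85 tested members were lower, a share close to the 20.6% of all probe sets that were lower. Another 6 were higher, against 26.8%. All 18 were among the 40 lower in vehicle mice, and 14 of them belonged to complex I. Another 21 of the 40 were not called there, and 1 was not tested. Of the 5 members higher in vehicle mice, 2 were higher there and 3 were not called. The member median was −0.046, against 0.027 for all probe sets, and it was −0.15 in complex I. Complex IV had 0 genes lower and 4 higher of 13, with a median of 0.069, and the complex V median was 0.021. Ndufb8 differed by −0.41 (adjusted p = 4.95e-05), Uqcr11 by 0.43 (adjusted p = 1.12e-05) and Cox7c by 0.27 (adjusted p = 0.0273). Cox6a2 differed by 0.15 there (adjusted p = 0.385).

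Promoter sequence is shown for 3 genes that fell together in NAC and for Cox7c, which rose, to show what their starts hold. Windows run from 250 bases before to 50 after the gene's start, from RefSeq on GRCm38.p6, and 74 of the 90 members had one. Ndufb5 is at chr3:32736813-32737112, forward strand, Ndufb8 at chr19:44555393-44555692, reverse strand, Sdha at chr13:74350191-74350490, reverse strand and Cox7c at chr13:86046746-86047045, reverse strand. Capitals mark any match to the core motif of nuclear respiratory factor 1, to CGGAAG (the ETS core, as bound by GABP) or to AANATGGCG (a YY1 core) on either strand.
Ndufb5: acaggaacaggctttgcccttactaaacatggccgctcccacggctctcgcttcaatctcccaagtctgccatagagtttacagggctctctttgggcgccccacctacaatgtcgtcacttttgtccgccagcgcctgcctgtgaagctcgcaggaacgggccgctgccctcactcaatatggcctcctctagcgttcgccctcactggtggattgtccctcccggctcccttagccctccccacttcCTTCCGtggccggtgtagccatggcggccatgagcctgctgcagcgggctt
Ndufb8: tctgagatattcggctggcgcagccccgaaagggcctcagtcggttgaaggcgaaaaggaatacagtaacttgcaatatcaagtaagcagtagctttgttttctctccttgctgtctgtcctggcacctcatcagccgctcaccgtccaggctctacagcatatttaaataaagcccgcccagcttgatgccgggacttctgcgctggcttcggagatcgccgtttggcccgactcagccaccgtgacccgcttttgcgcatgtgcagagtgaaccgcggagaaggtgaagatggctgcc
Sdha: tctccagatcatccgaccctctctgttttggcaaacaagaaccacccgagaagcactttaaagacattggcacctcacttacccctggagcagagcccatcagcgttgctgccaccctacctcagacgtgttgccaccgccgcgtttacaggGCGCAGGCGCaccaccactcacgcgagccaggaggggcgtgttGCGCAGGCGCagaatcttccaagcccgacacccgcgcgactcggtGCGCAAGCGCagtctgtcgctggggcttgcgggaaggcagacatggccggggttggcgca
Cox7c: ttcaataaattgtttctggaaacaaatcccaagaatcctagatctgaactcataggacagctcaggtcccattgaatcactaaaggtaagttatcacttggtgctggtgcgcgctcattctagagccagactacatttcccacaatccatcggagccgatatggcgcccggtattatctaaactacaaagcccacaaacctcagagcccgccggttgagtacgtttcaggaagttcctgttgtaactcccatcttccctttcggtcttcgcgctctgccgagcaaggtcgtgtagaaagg
The Sdha window held 3 matches of the nuclear respiratory factor 1 core, the Ndufb5 window held 1 ETS core, and the Ndufb8 and Cox7c windows held none of the 3. Matches of different motifs overlapped in 0 of the 74 members. Among the 74 members, 17 held the first motif, 35 the ETS core and 10 the YY1 core, which is 23%, 47.3% and 13.5%. Over 27025 genes with a window these shares were 5.19%, 18.8% and 2.76%. Among the 35 members lower in NAC with a window, 7 held the first motif, 12 the ETS core and 5 the YY1 core. The median GC content was 59% in the members and 52.7% over all genes, and the part of GC content in these shares was not tested.

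Other mitochondrial gene lists also held genes lower in NAC, where 28.8% of all probe sets were lower and 30.3% higher. Of 16 tested genes of pyruvate dehydrogenase and the citric acid cycle, 11 were lower in NAC and 0 higher, with a median of −0.27. Sucla2, a subunit of succinyl-CoA ligase, fell by 0.43 (adjusted p = 1.31e-05), and Idh3g, of isocitrate dehydrogenase, fell by 0.34 (adjusted p = 2.4e-05). Of 10 carriers and channels 6 were lower, among them the outer membrane channel Vdac3 at −0.52 (adjusted p = 5.43e-08) and the mitochondrial creatine kinase Ckmt1 at −0.56 (adjusted p = 0.000639). Of 76 mitochondrial ribosome genes 32 were lower and 5 higher. The genes lower in these lists were 11, 6 and 30 without Vehicle NAC 1, beside 27.0% of all probe sets.

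Of 15 transcription regulators of mitochondrial genes, 2 were lower and 2 higher: Ppargc1b, a coactivator of mitochondrial biogenesis, rose by 0.45 and Polg, the mitochondrial DNA polymerase, rose by 0.46. Glycolysis had 7 of 13 genes lower and 1 higher, the higher being Ldha, a lactate dehydrogenase subunit, at 0.84 (adjusted p = 2.91e-08). Glycolysis had 6 lower and 2 higher without Vehicle NAC 1, beside 27.0% and 30.4% of all probe sets. Cytosolic ribosome genes had 9 of 44 lower and 5 higher, with a median of −0.11 over all arrays and 0.019 without Vehicle NAC 1.

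Markers of several cell types also differed between NAC and VTA, where 28.8% of all probe sets were called lower and 30.3% higher. Oligodendrocyte markers were lower for 8 of 9 genes, with list means of 9.81 to 10.41 in NAC and 10.72 to 11.11 in VTA. Markers of fast-spiking and large neurons were lower for 5 of 7 genes, with means of 8.38 to 9.12 in NAC and 9.43 to 10.16 in VTA. Pan-neuronal markers were lower for 7 of 13 genes and higher for 2, and microglia markers were higher for 7 of 8. Their part in the difference of the respiratory chain genes was not tested.

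PFC levels were compared as a description only, since the deposited PFC arrays are on another scale, with a median of 7.23 over vehicle arrays against 6.86 in NAC and 6.79 in VTA. After quantile normalization of all arrays together, 29 of 85 members were lower in all PFC vehicle arrays than in all VTA ones, against 20.1% of all probe sets, and 5 were higher, against 20.1%. Complex I gave 16 of the 29. Ndufb5 was 0.78 lower in PFC than in VTA and Ndufa6, another complex I subunit, 0.64 lower. Between PFC and NAC, 14 members were all lower, against 14.6% of probe sets, and 9 all higher, against 16.5%, with a median of −0.025. Leaving out Vehicle NAC 1, a step added after the data were seen, gave 14 all lower, against 15.4%, and 11 all higher, against 17.4%, with a median of −0.0012.

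Modafinil was compared with vehicle within each region. In VTA, 0 of 87 tested members were called, against 0.259% of all probe sets, with 4 members higher and 1 lower at an unadjusted p under 0.05, beside 6.84% and 14.2% of probe sets. Their values were higher for 37 and lower for 50, with a median of −0.0072, beside −0.047 for all probe sets, of which 36.2% were higher. Medians of the 5 complexes lay between −0.028 and 0.0030, and that of the assembly factors was −0.089.

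Cox6a2 had the smallest p in VTA. It read 8.91, 7.98, 7.99, 8.42 and 8.42 in modafinil VTA arrays, against 7.55, 7.34, 7.33, 8.25 and 7.39 in vehicle VTA arrays. The lowest modafinil array lay above all vehicle arrays but Vehicle VTA 4. The difference was 0.77 (SE 0.20, adjusted p = 0.0825), so it was not called. It was called with array weights (0.91, adjusted p = 0.0242) and with all 36 arrays in 1 fit (adjusted p = 0.001). Dopamine neuron markers had lower values in modafinil VTA for 10 of 10 tested genes, with list means of 7.58 to 9.05 in modafinil and 8.57 to 10.16 in vehicle. Markers of thalamic, hypothalamic and raphe neurons had higher values for 6 of 6, with means of 8.28 to 9.41 and 7.73 to 8.61. Markers of fast-spiking neurons had higher values for 3 of 7, with Pvalb at −0.46 (adjusted p = 0.281). The part of these markers in the Cox6a2 difference was not tested.

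The modafinil change of Cox6a2 differed between PFC and VTA, by −0.77 (SE 0.18, adjusted p = 0.0223). It was the 1 member called of 84 in that contrast, against 0.903% of all probe sets. In PFC its values were 8.69 to 9.12 with modafinil (median 8.98) and 8.66 to 9.22 with vehicle (median 8.98), and they overlapped throughout. In NAC they were 8.32, 8.42, 8.49, 8.70 and 8.54 with modafinil, against 8.36, 8.47, 8.54, 8.42 and 8.45 with vehicle. The change in NAC minus that in VTA was −0.73 (adjusted p = 0.107), and 0 members were called there, against 0.274% of probe sets. The PFC and VTA difference was no longer called without Modafinil VTA 1 (−0.63, adjusted p = 0.0789) or without Vehicle VTA 2 (−0.71, adjusted p = 0.0635). A second Cox6a2 probe set gave −0.65 for PFC minus VTA (adjusted p = 0.193).

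**Figure D2:**
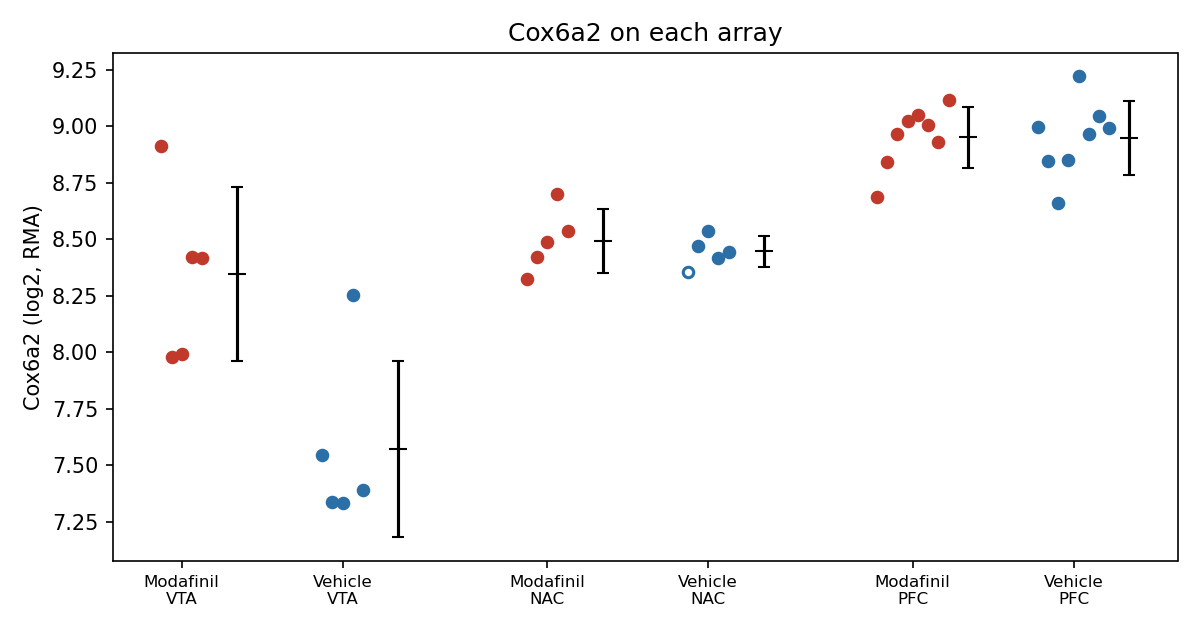
Cox6a2 on each array (log2), with modafinil in red, vehicle in blue, Vehicle NAC 1 as an open circle, and bars for the mean and SD of each group. Modafinil VTA arrays run from 7.98 to 8.91 and vehicle VTA arrays from 7.33 to 8.25, while the modafinil and vehicle arrays of NAC and of PFC overlap.

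Other members with small p in VTA were Ndufaf6, lower by value at −0.27 (adjusted p = 0.122), Ndufa10, a complex I subunit, at 0.19 (adjusted p = 0.169), Ndufa4l2 at 0.29 (adjusted p = 0.217) and Ndufs3, a core complex I subunit, at 0.15 (adjusted p = 0.226). None was called.

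In NAC, 0 of 85 tested members were called, and 0% of all 27022 probe sets were called either. At an unadjusted p under 0.05 there were 0 members, beside 309 probe sets higher (1.14%) and 565 lower (2.09%). The values leaned one way: 72 members were higher in modafinil and 13 lower, while 43.5% of all probe sets were higher. The median member difference was 0.11, beside −0.015 for all probe sets. By complex the median was 0.097 in complex I, 0.02 in complex II, 0.14 in complex III, 0.18 in complex IV and 0.14 in complex V, and the assembly factors had −0.017. All 8 genes of complex III and all 17 of complex V had higher values.

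Without Vehicle NAC 1 those sizes were smaller. The median member difference was 0.047, with 71 values higher and 14 lower, beside −0.027 for all probe sets, of which 38.3% were higher. Complex medians were 0.048 for complex I, 0.065 for III, 0.054 for IV and 0.052 for V. Again 0 members were called, against 0% of probe sets, with 0 at an unadjusted p under 0.05, beside 0.833% of probe sets higher and 1.82% lower. Cytosolic ribosome genes, another bright group, had 36 of 44 values higher with that array and 21 of 44 without it.

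**Figure D3:**
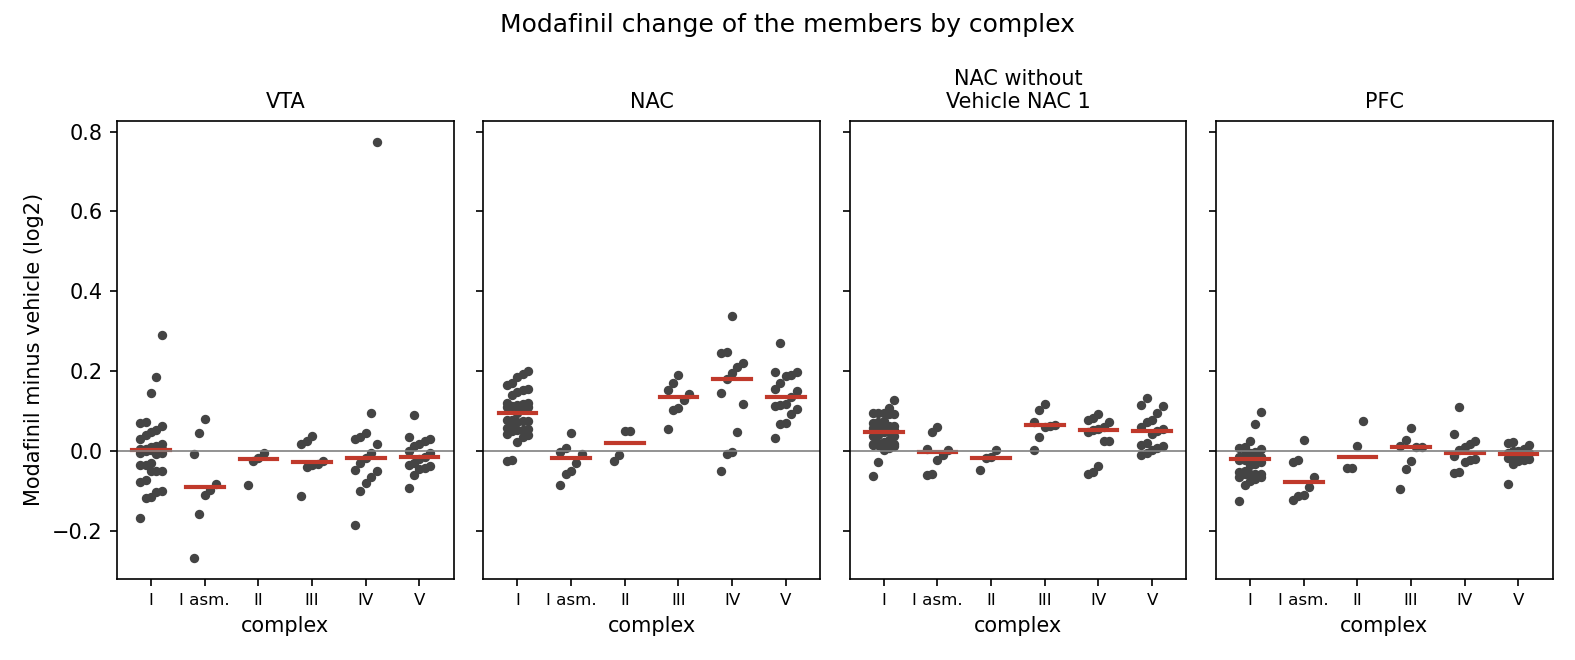
Modafinil minus vehicle for each tested member in log2 units, by complex, in VTA, NAC, NAC without Vehicle NAC 1, and PFC. Red lines are medians. In NAC the medians of complexes I, III, IV and V lie between 0.097 and 0.18 with all arrays and between 0.048 and 0.065 without Vehicle NAC 1.

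The mean of all 90 members was 10.63, 10.60, 10.81, 10.80 and 10.77 in the modafinil NAC arrays, against 10.39, 10.63, 10.72, 10.70 and 10.68 in the vehicle NAC arrays. Vehicle NAC 1 was the lowest array of both groups. Modafinil NAC 1 and 2 lay below the other 3 modafinil arrays, close to Vehicle NAC 2 and above Vehicle NAC 1. Pan-neuronal markers had higher values in modafinil NAC for 13 of 13 genes (12 of 13 without Vehicle NAC 1), and striatal markers lower values for 8 of 8 with or without it, and their part in the lean of the members was not tested.

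**Figure D4:**
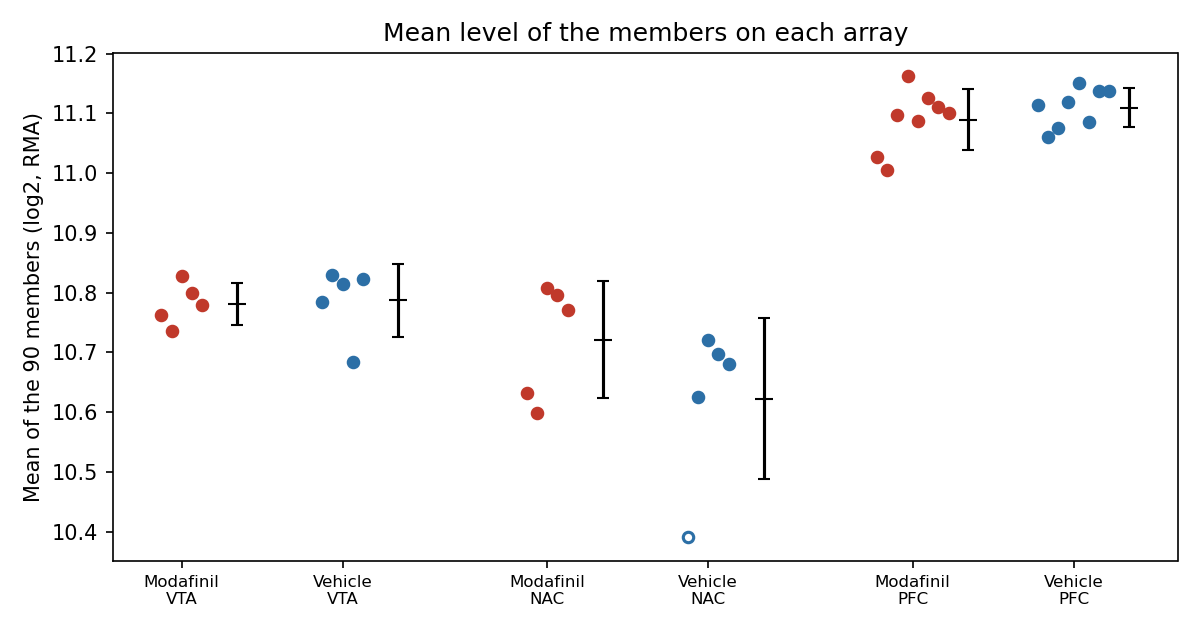
Mean log2 level of the 90 members on each array, with modafinil in red, vehicle in blue, and bars for the mean and SD of each group. The open circle is Vehicle NAC 1 at 10.39, below every other NAC array. PFC arrays are on another scale and are not compared with the other regions.

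The gap of Vehicle NAC 1 grew with brightness. Among members with a mean of 13 or above in the other vehicle NAC arrays, it was −1.18 at the median (2 members), and among those between 12 and 13 it was −0.68 (19 members). Between 11 and 12 it was −0.29 (24 members), between 10 and 11 it was −0.17 (24 members), and between 8 and 10 it was 0.046 (13 members). Over all probe sets the medians in those ranges were −1.02, −0.69, −0.36, −0.19 and −0.037, so the members followed the other probe sets of their brightness. Cox6a1 had the largest gap among the members and read 12.42 on Vehicle NAC 1 and 13.73 to 13.90 on the other vehicle NAC arrays. Of the 90 members 58 had their lowest NAC value on this array (64.4%), beside 13.1% of all tested probe sets.

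**Figure D5:**
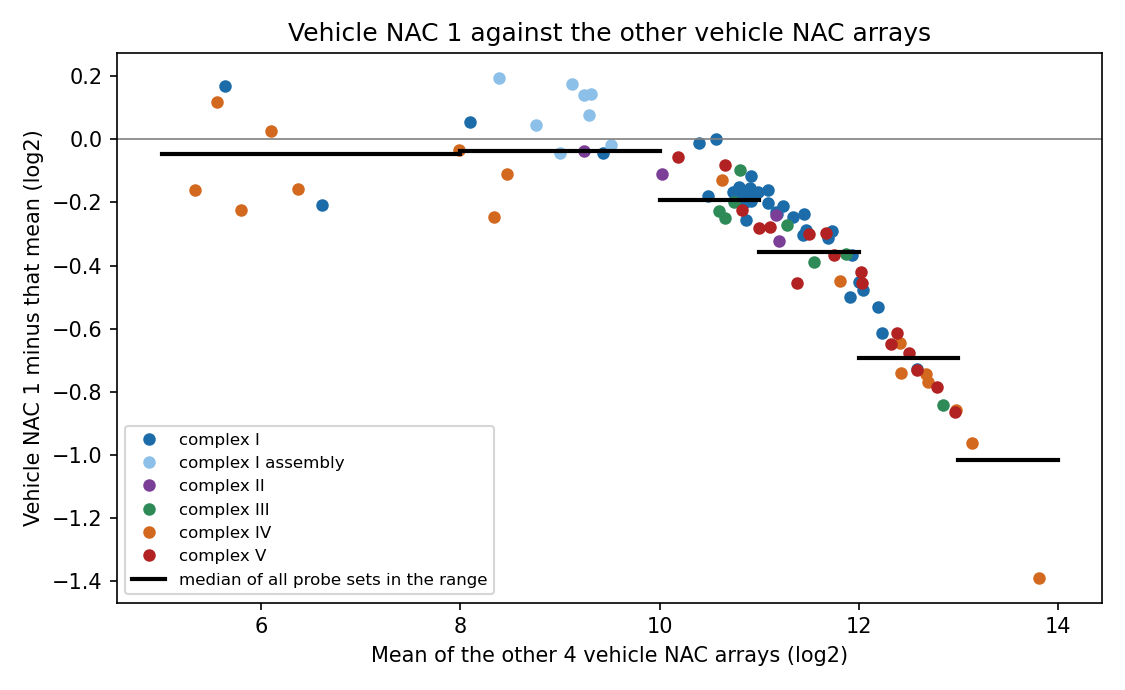
Vehicle NAC 1 minus the mean of the other 4 vehicle NAC arrays, against that mean, for each member (points, by complex) and for the median of all probe sets in ranges of brightness (black lines). Members of 12 and above lie between −0.42 and −1.39, and the 8 assembly factors lie between −0.042 and 0.20.

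The members with the smallest p in NAC had smaller differences without that array. Atp5pb, a peripheral stalk subunit of complex V, read 12.54, 12.51, 12.70, 12.76 and 12.68 with modafinil, against 11.83, 12.48, 12.50, 12.53 and 12.50 with vehicle. Its difference was 0.27 (SE 0.13) and 0.13 without Vehicle NAC 1 (SE 0.073), and neither was called. Atp5c1 had 0.20 with that array and 0.11 without it.

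In PFC, 0 of 84 tested members were called, against 0.0518% of all probe sets, with 1 higher and 3 lower at an unadjusted p under 0.05, beside 3.63% and 8.15% of probe sets. Values were higher for 26 and lower for 58, with a median of −0.016, beside −0.028 for all probe sets, of which 37.5% were higher. Ndufs8, an iron-sulphur subunit of complex I, ran from 11.87 to 12.06 with modafinil (median 11.96) and from 12.04 to 12.19 with vehicle (median 12.08), and the groups overlapped in part. Its difference was −0.12 (SE 0.040, adjusted p = 0.293). It is read by an x_at probe set, a class with probes that may bind unrelated transcripts. Uqcrb, a complex III subunit, had −0.094 (adjusted p = 0.384) and Ndufa3, a complex I subunit, had 0.098 (adjusted p = 0.404).

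Across the 3 regions together, 0 of 84 members were called, against 0.840% of all probe sets, with 3 higher and 1 lower at an unadjusted p under 0.05, beside 3.61% and 13.0% of probe sets. The median was 0.024 with 59 values higher, while 34.7% of all probe sets were higher. Without Vehicle NAC 1 it was 0.0027 with 45 higher, beside 32.5% of probe sets, and 0 members were called, against 0.766%. Of the 8 assembly factors 7 had lower values, with a median of −0.067, and −0.065 without that array, and their difference from the subunits was not tested. After quantile normalization their mean modafinil difference was −0.019 in VTA, −0.0070 in NAC and −0.015 in PFC, against −0.074, −0.022 and −0.064 in the deposited values. Among these factors Ndufaf3 had the smallest p, at −0.10 (adjusted p = 0.202). Of 76 mitochondrial ribosome genes, 74 had lower values and 0 were called. Between PFC and NAC, the modafinil change differed for 0 members, against 0% of all probe sets, with 16 lower at an unadjusted p under 0.05, beside 2.87% of probe sets. Without Vehicle NAC 1 those 16 became 2, beside 2.10%.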

How the data were processed

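Values on the log2 scale were used as deposited by the authors, computed with RMA per the submitters' processing notes, for 36 arrays and 45101 probe sets. Its version is not stated. The 64 control probe sets were left out, 34945 had 1 symbol, 932 several and 9160 none. Symbols came from the platform annotation, updated through the Entrez identifier for 34741 probe sets. Members, gene lists and named genes were chosen with earlier results of these data known. The named genes were members past the threshold (at most 10 per direction, 8 between regions), the 4 smallest p-values per direction, a fixed set of core subunits and isoforms, and the 2 smallest p-values per direction of each related list, and not all are printed.

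Linear models were fitted by limma 3.58.1 (lmFit, then eBayes; R 4.3.3) to the 27022 probe sets at or above the 40th percentile of the mean over the arrays of its fit, with Benjamini-Hochberg adjustment and a threshold of 0.05. NAC against VTA was fitted over the 18 vehicle arrays. Without Vehicle NAC 1, 27023 probe sets passed. SE is the moderated standard error. The fits were tested on simulated data. Replicate numbers were checked for pairing between groups: in none of the 9 group pairs did every same-numbered pair correlate above 0.1 (range −0.52 to 0.32), so no block was used. No 2 arrays were identical. Raw intensities and scan dates were not analysed here.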

Additional observations from a re-analysis of the deposited data

Results flagged for a closer look

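In groups of 5 or 8 arrays, 138 sets of values were examined for an array far from the others, and 17 had one. For any 1 set chance alone gives about 1 in 20. The sets share genes and arrays, so the 17 do not measure an excess over chance. The figure after each is the gap to the nearest array as a share of the group's range. Vehicle NAC 1 was low for the mean of all members (0.711), of complex IV (0.855) and of complex V (0.782), and for Sdha (0.925), Cox5a (0.851), Cox6a1 (0.879), Atp5pb (0.919) and Ndufa1 (0.785). Vehicle NAC 2 was low for the assembly factors (0.747). Vehicle VTA 4 was high for Cox6a2 (0.767) and low for Ndufb8 (0.728) and Atp5c1 (0.814). Modafinil VTA 1 was low for Atp5c1 (0.728). Modafinil PFC 2 was low for complex II (0.682), Atp5c1 (0.583) and Ndufaf2 (0.67), and Modafinil PFC 1 was low for Cox7c (0.532). The modafinil change of Cox6a2 differed between PFC and VTA by −0.771 (SE 0.18, adjusted p = 0.0223), with higher values in modafinil VTA.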

How the results depend on the processing

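Alternatives for the 8 comparisons were quantile normalization, no filter, a filter at the 60th percentile, trended and robust variance, and array weights. A replicate block, 1 probe set per gene and leaving out an array were also run. Platform symbols, the mean of all probe sets and no assembly factors were run only for the members as a set. The others were also read for the genes named in each comparison by a call or a smallest p-value. Of the called ones, 0 changed sign. With the modafinil arrays in place of the vehicle arrays, 2 members called lower in NAC but outside those genes had values just above 0. Ndufa5 was at 0.016 (adjusted p = 0.843), against −0.20 in vehicle. Cox7a2, of the fixed set of isoforms, was at 0.0044 (adjusted p = 0.966), against −0.25. In VTA, 1 member was called with array weights and 1 with all 36 arrays in 1 fit, in both cases Cox6a2. For the NAC change minus the VTA change, array weights gave 2 calls, Cox6a2 and Ndufb6. Leaving out 1 array gave 0 to 1 calls there (Cox6a2, without Vehicle VTA 4 or without Modafinil VTA 2) and 0 to 1 for the PFC change minus the VTA change. Between NAC and VTA in vehicle, leaving out 1 array gave 40 to 48 calls, and the modafinil arrays in place of the vehicle arrays gave 24 calls and a median of −0.046, an alternative chosen after seeing the data. The replicate block gave 47 calls between NAC and VTA and 1 for the PFC change minus the VTA change, and 0 in the other 6 comparisons. The labels do not say that replicate numbers pair arrays. For Vehicle NAC and Vehicle VTA the 5 same-numbered correlations were 0.016 to 0.25, 1 of them above 0.1, and 4 of 5 matched best with their own number, a hint from the data and not from the design.

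In NAC the median modafinil difference was 0.036 after quantile normalization and 0.047 after it without Vehicle NAC 1, and its range over arrays left out was 0.047 to 0.14. In VTA the median turned to 0.0025 after quantile normalization. Between NAC and VTA, quantile normalization gave 39 lower and 10 higher members. VTA and NAC have 5 arrays per group, so small differences there are imprecise.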
